A study of Mus musculus with 16 samples.

Results

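The genes described here make, sense, move and export cholesterol. They were 32 named genes, all of which were found by symbol among the 14504 genes of the deposited table of normalized counts. By role, 8 encode enzymes of the early pathway from acetyl-CoA to the isoprenoid diphosphates, 11 encode enzymes of the sterol branch from squalene onward, 4 control the SREBP transcription factors, 4 move or store sterols inside the cell, and 5 belong to the LXR and efflux arm. RNA came from the dorsal raphe nucleus (DRN), the main serotonergic nucleus of the brain, which was punched from frozen sections of adult male C57BL/6 mice. Each of the 16 libraries came from 1 mouse. Control mice received no defeat stress, while the others lived through 30 days of chronic social defeat by CD1 aggressors and were then sorted by behaviour into a passive coping phenotype (PS) and an active coping phenotype (AS). Each phenotype was sampled 6 h after an injection of saline or of 2 mg/kg dexamethasone (DEX), a synthetic glucocorticoid receptor agonist. There were 3 control saline, 3 control DEX, 2 PS saline, 3 PS DEX, 3 AS saline and 2 AS DEX libraries. A single library is named by group, treatment and the mouse number of its title, as in con_sal_104. The titles call the stressed groups dep1 and dep2, which were read here as PS and AS. The study removed DEX libraries of stressed mice with low Tph2 before analysis, so the PS and AS DEX groups are selected groups. It describes 4 mice per condition, and the control and saline groups here also hold fewer. The Tph2 removal does not cover those groups, and no reason was found in the study's text. Because the tissue was bulk, fewer cells of a type and less RNA per cell cannot be told apart in any value below.

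Cholesterol does not cross the blood-brain barrier to any useful extent, so the brain makes its own, and most of it lies in myelin. Synthesis starts from acetyl-CoA, runs through mevalonate and the isoprenoids to squalene, and ends in a long series of sterol conversions. When membrane sterol is low, SCAP escorts SREBP to the Golgi, where it is cleaved and released to switch on the synthesis genes. When sterol is high, INSIG proteins hold the complex in the endoplasmic reticulum. Oxidized sterols activate the nuclear receptors LXR alpha and LXR beta, which raise the transporters ABCA1 and ABCG1 that load cholesterol onto lipoproteins. Glucocorticoids act through a nuclear receptor of their own, and the comparison of DEX with saline asks which of these genes differ within hours of that signal.

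The libraries held 38207157 to 62447298 reads assigned to genes, and no sterol gene had fewer than 86 reads in any library. The same 16 libraries carried the marks of the treatment and of the region. All 10 glucocorticoid target genes examined, such as Fkbp5 and Sgk1, rose with DEX averaged over phenotypes (limma adjusted p under 0.1). Over all genes, 4.31% passed in either direction. The list was chosen with earlier results of these data known, so it is a description and not an independent check. The score of these 10 genes ran from −0.90 to −0.64 in the 8 saline libraries and from 0.59 to 0.91 in the 8 DEX libraries. A score is the mean, over a list, of each gene's deviation in log2(normalized count + 1) from its own mean over libraries. The summed level of 8 serotonin neuron markers, Tph2 among them, was 317405 to 453089 normalized counts in saline libraries and 299958 to 443257 in DEX libraries.

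Within the pathway, transcript levels were compared per kb of exon. Hmgcs1, which encodes the cytosolic synthase that makes HMG-CoA, stood highest with 3929 ± 366 normalized counts per kb (SD, n = 16 libraries). Insig1 (2884 ± 520.0), Fdft1 (2252 ± 432) and Srebf2 (2147 ± 183 normalized counts per kb) came next. The ranges of Hmgcs1 and Insig1 over libraries overlapped, as did those of Insig1, Fdft1 and Srebf2. Acat2, Sc5d, Cyp51, Pmvk and Sqle formed a second tier between 1091 and 1375 normalized counts per kb. The efflux transporter Abca1 stood at 187 ± 66.1 normalized counts per kb, below its relative Abcg1 at 379 ± 37.7, and their ranges over libraries (83.8 to 312 and 285 to 423) overlapped. Nr1h3, which encodes LXR alpha, was the lowest at 47.4 ± 8.72 normalized counts per kb, while Nr1h2, which encodes LXR beta, was at 599.8 ± 69.9 with no overlap between the ranges of the 2 receptors. Fdps, the farnesyl diphosphate synthase, was also low at 48.1 ± 9.06 normalized counts per kb. Fdps overlaps a read-through gene on its own strand, which can take reads from it, so its level is uncertain. The same holds for Tm7sf2 and Nr1h3, which share bases with a neighbour on the same strand, and for Nr1h2, which has a named pseudogene. Hmgcs1, Idi1, Ggps1, Fdft1, Lss, Cyp51, Scap and Npc1 overlap a gene on the other strand, and whether the counting used strand is not given in the sources used here.

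**Figure D1:**
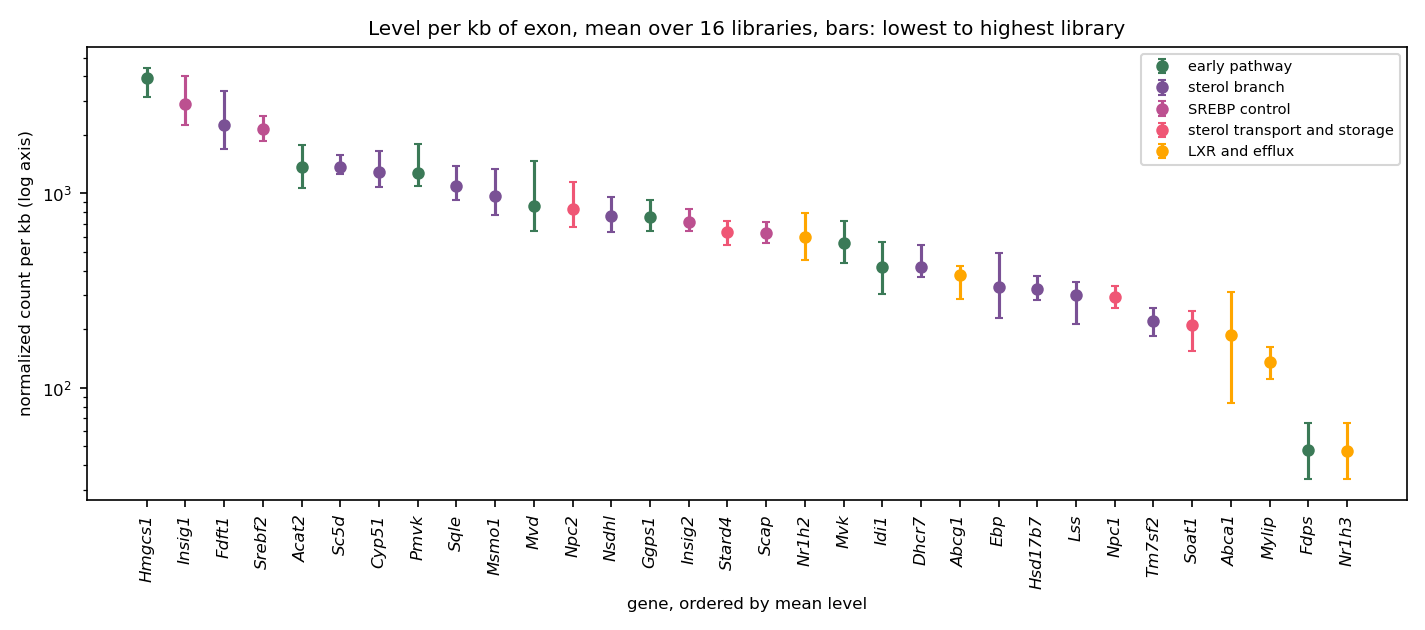
Level of each of the 32 genes in normalized counts per kb of exon, on a log axis, as the mean over 16 libraries, with bars from the lowest to the highest library and colours for role. Hmgcs1 stood highest at 3929 and Nr1h3 lowest at 47.4, and Abca1 had a wide range from 83.8 to 312.

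Averaged over the 3 phenotypes, Abca1, the sterol efflux pump, rose with DEX, and Hmgcs1, an enzyme at the entry to the mevalonate pathway, fell. Abca1 was 1.87-fold higher after DEX (95% interval 1.54 to 2.26) and Hmgcs1 was 0.863-fold (95% interval 0.794 to 0.938). These were 2 of 32 members past an adjusted p of 0.1 in limma, with 4.31% of all genes past it in the same comparison (2.45% without AS_dex_42 and 2.82% without PS_sal_68). At an unadjusted p of 0.05, 8 members (25.0%) passed, 7 of them lower, against 2033 of the 14504 genes tested. The median log2 change over the 32 genes was −0.08, against −0.00 over all genes, and 24 of 32 were negative against 50.6% of all genes. By role, 7 of 8 early pathway genes, 8 of 11 sterol branch genes and 4 of 4 transport and storage genes had a negative log2 change, but only Hmgcs1 among them passed the test. On counts of whole reads, edgeR called the same 2 genes, and DESeq2 called these 2 and Ebp. Over all genes edgeR called 4.29% and DESeq2 6.23%.

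**Figure D2:**
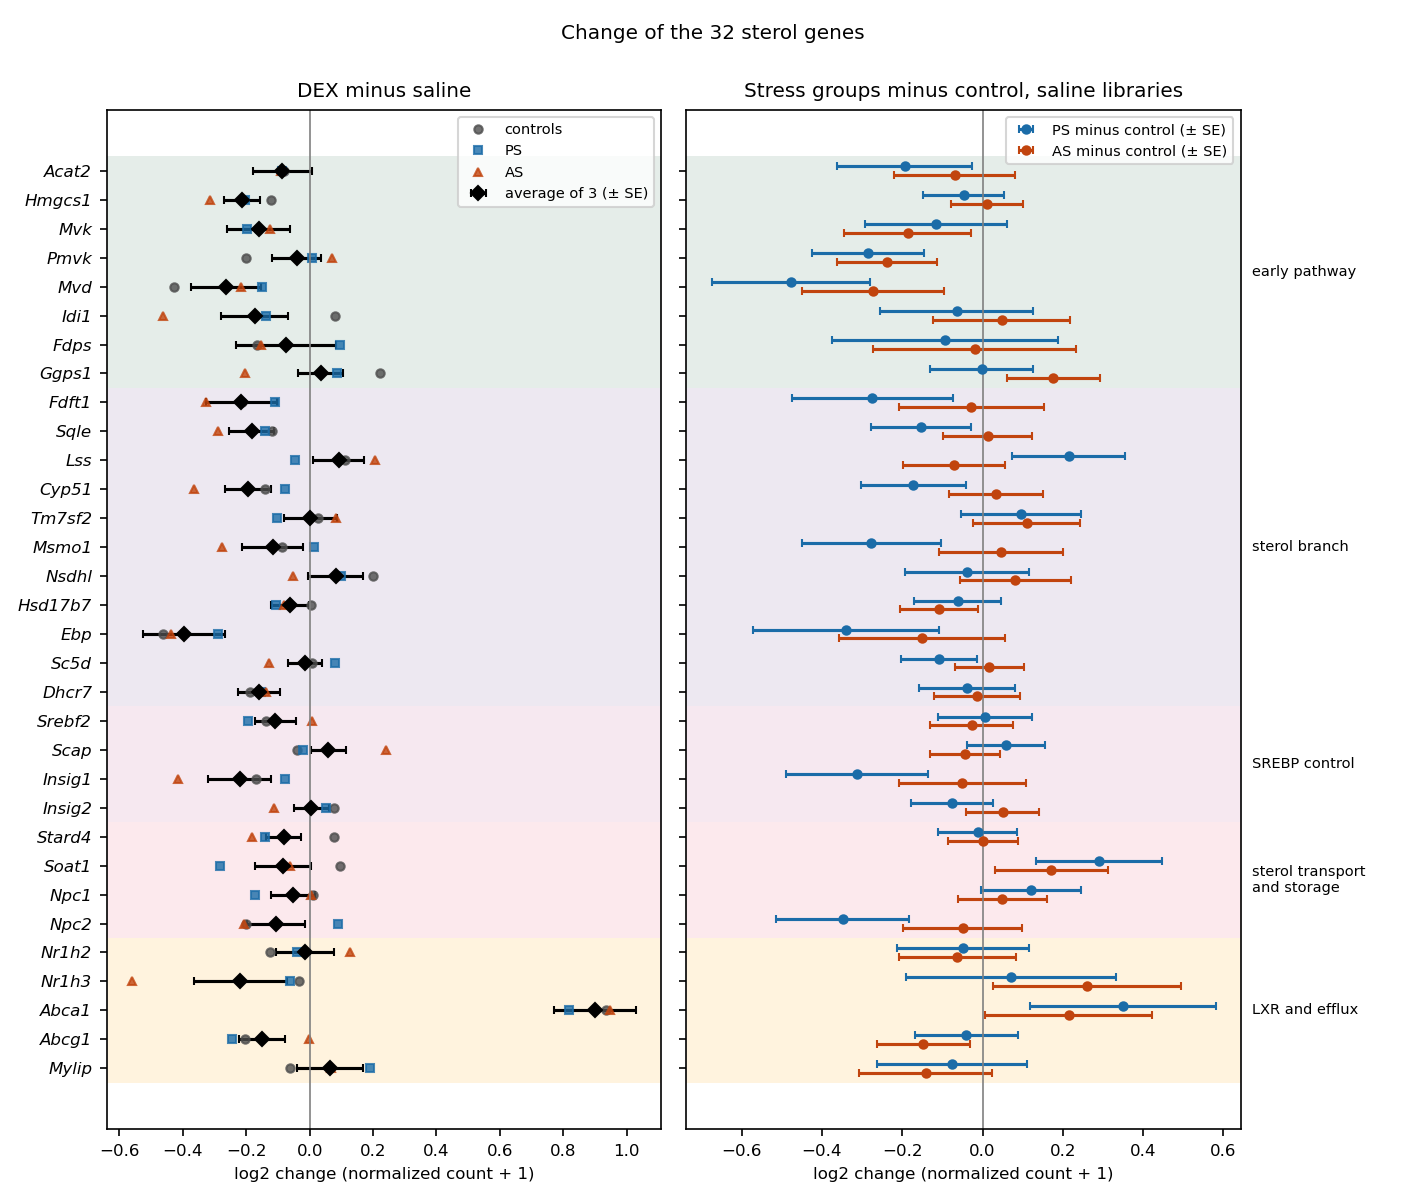
Log2 change of each gene, grouped by role. The left panel shows DEX minus saline in controls, PS and AS, and their average with its SE as a bar, and the right panel shows PS and AS minus control among saline libraries with SE bars. Abca1 alone stood near 0.90 on the left, and no gene passed the test on the right.

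In the early pathway, Hmgcs1 had 18522, 20387 and 19386 normalized counts in the control saline libraries and 17602, 18237 and 17674 in the control DEX libraries. PS saline libraries held 18148 and 19468, and PS DEX libraries 17696, 17129 and 14381. AS saline libraries held 19254, 20141 and 19297, and AS DEX libraries 15591 and 15884. Every DEX library was below every saline library of its own phenotype. Taken singly, controls showed this for 7.43% of all genes, PS for 10.1% and AS for 14.8%. Across phenotypes the groups overlapped, because 1 control DEX library (18237) lay above 1 PS saline library (18148). The log2 change was −0.21 ± 0.06 (SE) on average with a limma adjusted p of 0.060, and controls, PS and AS had −0.12, −0.20 and −0.31. The call was lost in 7 of 16 fits that each left out 1 library. Without con_dex_101, con_dex_122, PS_sal_62, PS_sal_68, AS_sal_14, AS_dex_38 or AS_dex_42, the limma adjusted p ran from 0.102 to 0.217, and the log2 change over all 16 such fits from −0.23 to −0.18.

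Among the other early enzymes, the mevalonate diphosphate decarboxylase Mvd had an average log2 change of −0.26 ± 0.11 with a limma adjusted p of 0.299. Idi1, the isomerase of isopentenyl diphosphate, had −0.17 ± 0.11, and the mevalonate kinase Mvk had −0.16 ± 0.10. Acat2, which joins acetyl-CoA units, Pmvk, the next kinase after Mvk, and Fdps were between −0.09 and −0.04. Ggps1, which diverts isoprenoids to geranylgeranyl diphosphate and away from sterols, was the one early gene with a positive value, 0.03 ± 0.07.

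In the sterol branch, Sqle, the oxygen-dependent squalene epoxidase, had 5944, 6947 and 6884 normalized counts in control saline libraries and 5525, 6961 and 5759 in control DEX libraries. It had 6000.2 and 5822 in PS saline and 5461, 5492 and 5139 in PS DEX libraries. It had 5848, 6501 and 7671 in AS saline and 5617 and 5245 in AS DEX libraries. DEX libraries were the lower ones without overlap in PS and AS, as for 10.1% and 14.8% of all genes. The control groups overlapped, with a DEX library the highest of the control libraries. The average log2 change of −0.18 ± 0.07 did not pass the test (limma adjusted p = 0.245). Ebp, the sterol isomerase, had the most negative value of all 32 genes, −0.40 ± 0.13, with a limma adjusted p of 0.154 and a DESeq2 adjusted p of 0.067. Its normalized counts ran from 676 to 1136 (median 800.3) in saline and from 530.1 to 855 (median 626) in DEX libraries, which overlapped.

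Fdft1, the squalene synthase, had a log2 change of −0.22 ± 0.11, Cyp51, the lanosterol demethylase, −0.19 ± 0.07, and Dhcr7, which makes cholesterol in the last step of one route, −0.16 ± 0.07. Their limma adjusted p-values were 0.409, 0.238 and 0.299. The C4-demethylation enzymes did not share a sign, with Msmo1 at −0.12, Hsd17b7 at −0.06 and Nsdhl at 0.08. Lss, the cyclase that makes lanosterol, was at 0.09, and Sc5d and Tm7sf2, a desaturase and a sterol reductase, were at −0.01 and 0.00.

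Among the control genes, Srebf2, which encodes the main SREBP for cholesterol synthesis, had 16388, 17870.2 and 14286 normalized counts in control saline and 13811, 14664 and 15560.0 in control DEX libraries. PS saline libraries held 17192 and 15217, and PS DEX libraries 15189, 13939.7 and 13319. AS saline libraries held 16089, 17077 and 14386, and AS DEX libraries 16025 and 15779. The groups overlapped in controls and AS. In PS the highest DEX library was just under the lowest saline library, and 10.1% of all genes also separated this way. The average log2 change was −0.11 ± 0.06 (limma adjusted p = 0.471).

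Insig1, the SREBP target that retains the SCAP complex, had 8415, 11309 and 11108 normalized counts in control saline and 8841, 10773 and 7821 in control DEX libraries. PS saline libraries held 8183 and 8215, and PS DEX libraries 8438, 8000.2 and 6948. AS saline libraries held 8743, 8737 and 12453, and AS DEX libraries 7605 and 7152. The libraries that stood high among saline samples were con_sal_104 and con_sal_114 and AS_sal_40, and the groups overlapped in controls and PS. The average log2 change was −0.22 ± 0.10 (limma adjusted p = 0.338). Scap, the escort, and Insig2, the second retention protein, had log2 changes of 0.06 ± 0.05 and 0.01 ± 0.06.

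Of the transport and storage genes, Npc2 and Npc1, which release cholesterol from lysosomes, had log2 changes of −0.11 ± 0.09 and −0.05 ± 0.07. Soat1, which esterifies cholesterol for storage, and Stard4, a cytosolic sterol carrier and SREBP target, both had −0.08. None passed the test, and the smallest limma adjusted p of the 4 was 0.507.

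In the efflux arm, Abca1 had 1483, 869 and 1272 normalized counts in control saline libraries and 2045, 2290.0 and 2451 in control DEX libraries. PS saline libraries held 1379 and 1636, and PS DEX libraries 2215, 2588 and 3236. AS saline libraries held 1457, 1657 and 1059.9, and AS DEX libraries 2374 and 2931. Abca1 was the one sterol gene whose 8 DEX libraries all lay above its 8 saline libraries, as 1.37% of all genes did, and no sterol gene had its DEX libraries all below, as 0.51% of genes did. The average log2 change was 0.90 ± 0.13 with a limma adjusted p of 0.00088, and it passed in all 16 fits that left out 1 library (0.83 to 0.96). The changes in controls, PS and AS were 0.94, 0.82 and 0.95, and the differences between phenotypes were −0.12 ± 0.31 for PS against controls and 0.01 ± 0.31 for AS against controls, with 95% intervals of −0.78 to 0.55 and −0.65 to 0.68.

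The other 4 genes of that arm did not pass this test. Abcg1 passed for the average without PS_dex_6 and with library weights. Abcg1, which encodes the partner transporter and is likewise an LXR target, had a log2 change of −0.15 ± 0.07 (limma adjusted p = 0.372). In controls its DEX libraries were all below its saline libraries, as for 7.43% of all genes. Mylip, the LXR-induced ligase that degrades lipoprotein receptors, had 0.06 ± 0.10. The receptors Nr1h2 and Nr1h3 had −0.01 ± 0.09 and −0.22 ± 0.15.

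**Figure D3:**
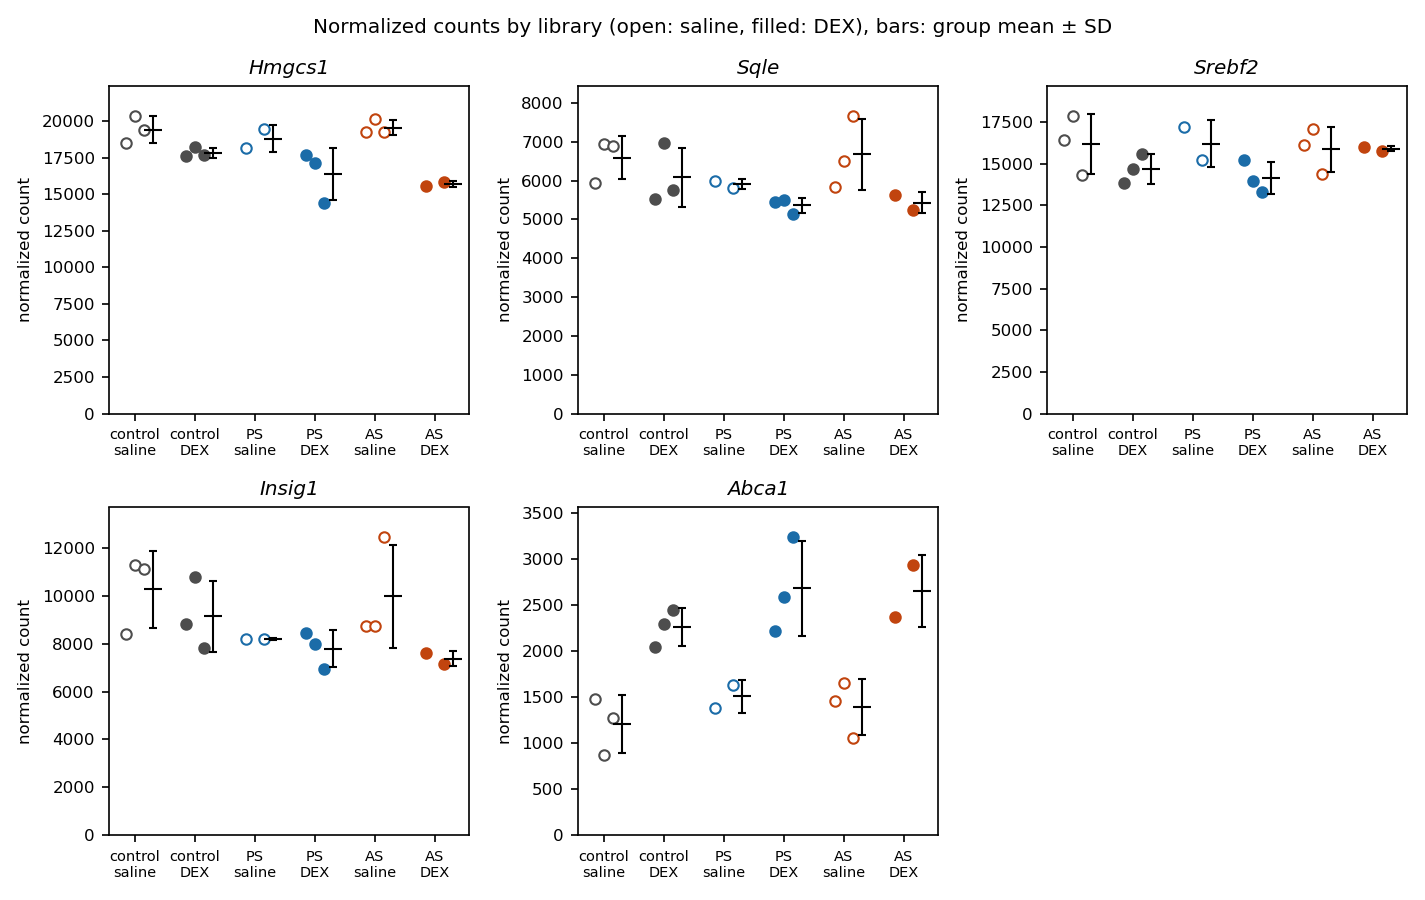
Normalized counts of Hmgcs1, Sqle, Srebf2, Insig1 and Abca1 in every library, by group, with open points for saline, filled points for DEX and bars for the group mean ± SD. Abca1 ran from 869 to 1657 in saline and from 2045 to 3236 in DEX libraries, while the other 4 genes overlapped between the treatments.

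The 250 bases before the RefSeq start of the 2 called genes are shown because these genes moved in opposite directions and one of them is a classic SREBP target. They are written 5′ to 3′ on the gene's strand (GRCm38.p6), with capitals at each match to a searched motif. The Abca1 window is chr4:53159896-53160145 (minus strand), next to a gene that spans 53030787 to 53159895. The Hmgcs1 window is chr13:119690101-119690350 (plus strand), and the gene ends at base 119708260.
Abca1: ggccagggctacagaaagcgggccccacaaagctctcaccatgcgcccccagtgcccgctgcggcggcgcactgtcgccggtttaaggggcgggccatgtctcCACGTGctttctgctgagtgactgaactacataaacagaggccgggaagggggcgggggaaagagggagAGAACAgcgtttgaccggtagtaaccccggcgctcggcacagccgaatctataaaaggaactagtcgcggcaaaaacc
Hmgcs1: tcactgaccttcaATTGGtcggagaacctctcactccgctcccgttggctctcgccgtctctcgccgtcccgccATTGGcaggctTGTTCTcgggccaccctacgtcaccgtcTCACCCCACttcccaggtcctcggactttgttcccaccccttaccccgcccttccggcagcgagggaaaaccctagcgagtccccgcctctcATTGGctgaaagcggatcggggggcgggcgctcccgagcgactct
The motifs, searched on both strands and none contained in another, were the sterol regulatory element TCACNCCAC, the NF-Y box CCAAT, the E-box CACGTG and the hexamer AGAACA of the glucocorticoid receptor element. The Abca1 window held 1 E-box, beginning 147 bases before the start, and 1 glucocorticoid hexamer, beginning 78 bases before it. The Hmgcs1 window held the sterol regulatory element 137 bases before the start, 3 NF-Y boxes and 1 hexamer. RefSeq promoters were at hand for 26 of the 32 genes. Hmgcs1 was the 1 gene among these 26 with the sterol element, which 1.22% of 27025 genes held. The NF-Y box stood in 21 of 26 (80.8%), against 37.5% of all genes and 40.4% of the measured ones. The E-box stood in 6 of 26 (23.1%), against 6.86% of all genes and 9.92% of the measured ones, and the hexamer also in 6 of 26, against 18.2% and 12.7%. A match is a description of these letters and not a site.

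Within single phenotypes fewer genes passed. In controls, Abca1 was the 1 member called (limma adjusted p = 0.058), with 1.26% of all genes called. That share ran from 0.496% without con_dex_122 to 1.99% without AS_sal_40. The Abca1 call was lost without con_sal_104, con_dex_101, con_dex_116 or con_dex_122 (adjusted p 0.133 to 0.276), and when only the control groups were fitted (adjusted p = 0.205). In PS, limma called 0 of 32, with 0.703% of genes called, and 0.207% without PS_sal_68. 1 member (3.12%), Abca1 (limma adjusted p = 0.284), had an unadjusted p under 0.05, against 4.69% of all genes. edgeR called 0 members in PS, and DESeq2 called Abca1 (adjusted p = 0.045). Over all genes edgeR called 0.696% and DESeq2 1.34% in PS. In AS, limma called 0 of 32, with 0.689% of genes called. Without AS_dex_42, 11 genes were called (0.0758%), and without AS_dex_38, 44 (0.303%). In AS, 7 members (21.9%) had an unadjusted p under 0.05 in limma, against 9.36% of all genes. The 7 were Hmgcs1, Idi1 (log2 change −0.46), Sqle (−0.29), Cyp51 (−0.36) and Insig1 (−0.42) on the lower side, and Scap (0.24) and Abca1 on the higher. edgeR called 0 members in AS, and DESeq2 called Abca1 (adjusted p = 0.011) and Hmgcs1 (adjusted p = 0.074). Over all genes edgeR called 0.703% and DESeq2 1.93% in AS. The AS DEX group held 2 libraries.

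Over the 32 genes, controls had a median log2 change of −0.08, PS mice −0.08 and AS mice −0.13. With 1 library left out, the median for controls ran from −0.14 (without con_sal_102) to −0.04 (without con_sal_104). It ran from −0.12 (without PS_dex_34) to −0.06 (without PS_dex_64) in PS and from −0.16 (without AS_dex_42) to −0.09 (without AS_sal_40) in AS, so these ranges overlapped. In all 3 phenotypes, which share no libraries, 12 genes (37.5%) were negative, against 18.7% of all genes, and Abca1 was the 1 gene that was positive throughout, against 18.1%. The 12 were Acat2, Hmgcs1, Mvk, Mvd, Fdft1, Sqle, Cyp51, Ebp, Dhcr7, Insig1, Nr1h3 and Abcg1. Within a phenotype all genes were read from the same few libraries, so these signs are not independent observations. In AS, every DEX library was below every saline library for 11 of 32 genes, against 14.8% of all genes, and above for 3 of 32, against 15.1%. In PS the counts were 9 of 32 below, against 10.1% of all genes, and 2 of 32 above, against 11.2%. In controls they were 2 of 32 below, against 7.43%, and 1 of 32 above, against 8.51%.

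The DEX change of no sterol gene differed between phenotypes past the threshold. The interaction of DEX with PS against controls, with AS against controls and with AS against PS each called 0 of 32 genes in limma, DESeq2 and edgeR, and limma called 0% of all genes in each. Over the whole table DESeq2 called 0, 0 and 1 genes. At an unadjusted p under 0.05, limma gave 0, 1 (3.12%) and 0 members, against 2.1%, 4.02% and 2.9% of all genes. The 1 was Ggps1, whose log2 change was 0.22 in controls and −0.20 in AS. The interaction for Hmgcs1 between AS and controls was −0.19, with a 95% interval of −0.48 to 0.10.

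Chronic defeat without DEX was compared among saline libraries to ask whether the sterol genes differed by coping phenotype. PS against control, AS against control and AS against PS each called 0 of 32 genes in limma, DESeq2 and edgeR, and limma called 0% of all genes in each. Over the whole table DESeq2 called 4, 11 and 1 genes, none of them a member. Without con_sal_102, limma called 15 and 20 genes for PS and AS against control, and without PS_sal_62 it called 8 for PS, again with 0 members. The PS and AS comparisons share the 3 control saline libraries. At an unadjusted p under 0.05, limma gave 1 gene, Mvd in PS, with a log2 change of −0.48 ± 0.20, and 0 in both others. The median over the 32 genes was −0.06 for PS and −0.02 for AS against control, beside 0.01 and 0.02 over all genes. With 1 library left out, the PS median ran from −0.14 (without con_sal_102) to −0.03 (without con_sal_104). The AS median ran from −0.07 (without con_sal_102) to 0.04 (without con_sal_104), and it was also positive without AS_sal_8 or AS_sal_14, so its sign rests on single libraries. All 8 early pathway genes were negative in PS, from −0.48 to −0.00, and 5 of 8 in AS. After Mvd, the lowest values in PS were those of Npc2 (−0.35 ± 0.17), Ebp (−0.34 ± 0.23) and Insig1 (−0.31 ± 0.18), and Abca1 had the highest (0.35 ± 0.23). PS saline had 2 libraries, and the limma SE of a member there was 0.10 to 0.28. A moderated F test over all 6 groups called 1 of 32 genes, Abca1 (limma adjusted p = 0.024), with 1.57% of all genes called.

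Libraries of the same group differed from each other in these genes. AS_sal_40 held the highest value of 11 of the 32 genes and con_sal_104 of 9, while PS_dex_64 held the lowest value of 13. The score of the 19 synthesis genes was 0.24 in AS_sal_40, against −0.03 and 0.00 in the other 2 AS saline libraries, and 0.23 and 0.16 in con_sal_104 and con_sal_114, against −0.08 in con_sal_102. Among DEX libraries, con_dex_116 stood high at 0.15, and the rest lay between −0.14 and −0.03. The pooled SD within groups on the log2 scale had a median of 0.17 over the 32 genes (0.08 to 0.31), beside 0.21 over all genes.

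Some markers of other cell types moved with the treatment in the same libraries. A marker is said to rise or fall where its average DEX change passed the limma threshold. Over all genes, 4.31% passed it in either direction and 50.6% were negative. Of 15 myelin and mature oligodendrocyte markers, 14 had a negative average DEX change and 6 fell, with a median log2 change of −0.37. Their score ran from −0.15 to 0.49 in saline and from −0.61 to 0.10 in DEX libraries, their summed level from 150008 to 242449 and from 144841 to 203779 normalized counts, and none was at 0. Of 9 microglia markers, 3 fell, and their score ran from 0.02 to 0.57 in saline and from −0.29 to −0.02 in DEX libraries, with summed levels of 8839 to 13920 and 8066 to 9670. Of 6 markers of oligodendrocyte precursors, 3 rose, with summed levels of 7925 to 10514 and 9937 to 11659. Of 10 astrocyte markers, 1 rose, with a median change of 0.00. Among 7 endothelial, 8 neuron, 8 serotonin neuron, 10 ependymal and 4 choroid plexus markers, 0 rose and 0 fell. With the myelin score as a covariate, the average change of Abca1 was 0.87 (limma adjusted p = 0.092) and that of Hmgcs1 was −0.16 (adjusted p = 0.829), and the genes called over the whole table went from 625 to 149. The myelin score had group means of 0.25, 0.11 and 0.26 in control, PS and AS saline, and −0.08, −0.31 and −0.30 in DEX. Because the score itself differed with DEX, this fit cannot tell a myelin difference and a DEX effect apart. The part of myelin, microglia and precursors in these values was not tested. AS_sal_40 also had the highest microglia score, the highest astrocyte score (0.23) and a serotonin neuron score of 0.21. In con_sal_104 the serotonin neuron score was the highest of all libraries (0.39) and the precursor score the lowest (−0.47). PS_dex_64 had the lowest myelin score. The 10 ependymal markers differed widely inside the PS DEX group, with scores of −2.05, 0.54 and 1.63 in PS_dex_6, PS_dex_34 and PS_dex_64. Without PS_dex_64, the average log2 change was 0.85 for Abca1 (limma adjusted p = 0.0022) and −0.18 for Hmgcs1 (adjusted p = 0.085), and without AS_sal_40 it was 0.84 (adjusted p = 0.0010) and −0.22 (adjusted p = 0.066).

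**Figure D4:**
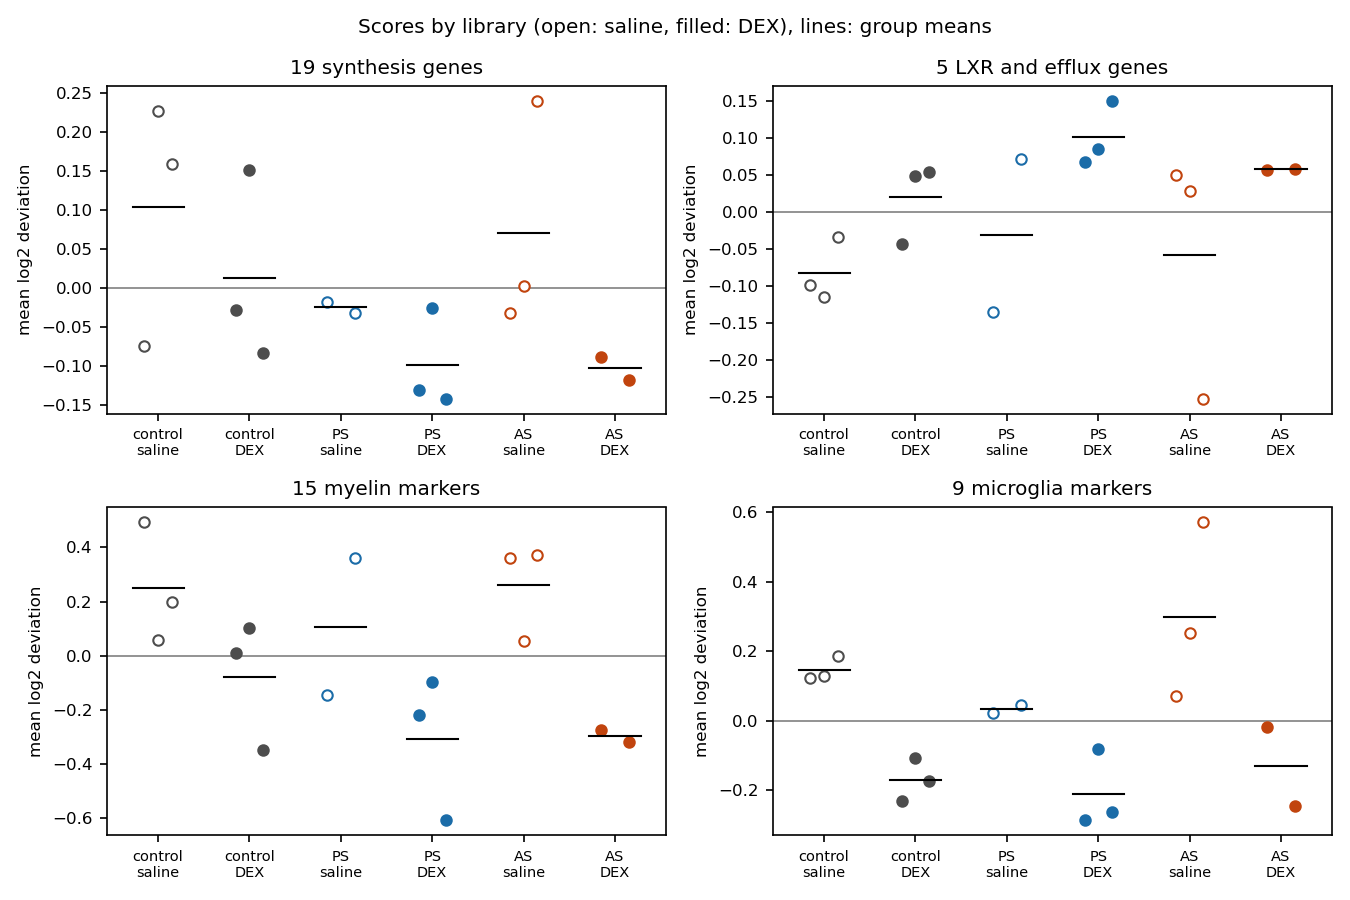
Score (mean log2 deviation) of the 19 synthesis genes, the 5 LXR and efflux genes, 15 myelin markers and 9 microglia markers in each library, by group, with open points for saline, filled points for DEX and lines for group means. The microglia scores of the 8 DEX libraries lay below those of the 8 saline libraries, while the synthesis and myelin scores overlapped.

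Beyond the 32 genes, 47 further genes of sterol uptake, oxysterol formation, lipoprotein handling and SREBP processing were measured. Averaged over phenotypes, 1 of the 47 passed the limma test, with 4.31% of all genes past it. Of the 47, 24 were negative, against 50.6% of all genes, and their median log2 change was −0.03. The 1 was Erlin2, an endoplasmic reticulum protein that takes part in the sterol-regulated breakdown of membrane proteins. It had 4919 ± 307 normalized counts in saline and 5554 ± 215 in DEX libraries (SD, n = 8 each), a log2 change of 0.17 ± 0.05 and an adjusted p of 0.0997, just under the threshold, beside 0.027 in DESeq2 and 0.132 in edgeR.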

How the data were processed

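Poly(A) RNA-seq of the DRN was analysed in 16 libraries, grouped by their titles, with dep1 read as PS and dep2 as AS. Per the labels and the study's methods, the authors trimmed reads with fastp 0.20.1, aligned them with HISAT2 2.2.1 to mm10/GRCm38, counted them with featureCounts (Subread 2.0) on GENCODE genes and normalized them with DESeq2 1.36.0. The deposited signal is gene counts divided by size factors. Multiplied by each library's size factor, read from the steps between low values, 100% of values came out as whole reads (tolerance 0.01), and edgeR and DESeq2 called 622 and 904 genes on them for the DEX average. Of 14504 genes, 973 fall below 10 reads in some library. The deposited comparison tables hold the authors' log2 fold changes and p-values and were not used.

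Values were tested as log2(normalized count + 1) with limma 3.58.1 (R 4.3.3, trend, 6 group means, Benjamini-Hochberg over all genes, adjusted p under 0.1). DESeq2 1.42.0 and edgeR 4.0.16 were run on the whole reads as alternatives. Same-group libraries differed beyond sampling noise (14 pairs). The fits were tested on simulated counts for the DEX average only. That simulation gave every gene the same dispersion and used changes larger than that of Hmgcs1. It does not cover small changes, single phenotypes or interactions. Gene positions and exon lengths came from GENCODE release 21 and promoters from RefSeq. Values in every library are given for called genes and for Srebf2, Insig1, Hmgcs1, Sqle and Abca1, other members by range or fitted change, and further sterol genes only where called. The genes and lists were chosen with earlier results of these data known. Replicate numbers were not shared between groups. The limma p-values set each change against the spread between mice of the same group, pooled over the 6 groups and moderated across genes.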

Additional observations from a re-analysis of the deposited data

How the results depend on the processing

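Over the alternatives run, no called change of a sterol gene changed sign, and the counts of sterol genes for the 3 stress comparisons and the 3 interactions stayed at 0. Medians near 0, which have no test, did change sign. The AS against control median among saline libraries went from −0.02 to 0.04 without con_sal_104, 0.03 without AS_sal_8 and 0.02 without AS_sal_14. The interaction median went from −0.02 to 0.03 for PS against controls with quantile normalization and ran from −0.06 to 0.05 over the fits that left out 1 library, and for AS against controls it ran from −0.12 to 0.03. With library weights, 6 genes were called for the DEX average, 3 in PS, 6 in AS and 4 over any of 6 groups, with a weight estimate that stopped short of its tolerance. The whole table then gave 1328 calls for the average against 625, 529 (3.65%) in PS, 1402 (9.67%) in AS and 1525 (10.5%) over any of 6 groups. With the myelin score as a covariate, 1 was called for the average, 0 in controls and 0 over any of 6 groups, and the whole table gave 149, 98 in controls, 42 in PS, 33 in AS and 56 over any of 6 groups. DESeq2 called 1 in PS, 2 in AS and 2 over any of 6 groups. Over the whole table DESeq2 called 437 genes in controls against 183, 187 in PS (1.34% against 0.703% of genes), 274 in AS against 100 and 637 over any of 6 groups against 228. With only the compared groups fitted, 0 were called in controls, and this setting gives no value for the average or the F test. Leaving out 1 library gave 1 to 3 for the average, 0 to 1 in controls, and 0 to 1 in AS, where Abca1 passed without con_sal_102 (adjusted p = 0.092) or con_sal_104 (0.064). Over the whole table such fits called 356 to 713 genes for the average, 72 to 289 in controls, 0.207% of genes at the least in PS, 11 to 118 in AS and 146 to 273 over any of 6 groups. Pseudocounts of 0.1 and 10, a mean of at least 100, TMM, quantile normalization and edgeR kept each count. Ebp passed for the average with library weights, with DESeq2, and without con_sal_102 or con_dex_116, Sqle and Dhcr7 with library weights, and Abcg1 with library weights and without PS_dex_6. In single phenotypes, library weights called Soat1, Abca1 and Abcg1 in PS and Hmgcs1, Sqle, Cyp51, Scap, Nr1h3 and Abca1 in AS. The cause was not tested. No paired analysis was possible because the groups share no replicate numbers. Groups of 2 or 3 mice limit what can be told apart.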
